A study of Mus musculus with 9 samples.

Results

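The genes Chka, Chkb, Pcyt1a, Chpt1, Pcyt2, Pemt, Lpcat3, Pctp, Stard7 and Stard10 make, remodel and carry phosphatidylcholine, and their expression was followed in the livers of mice fed permethrin or clofibrate. They are 10 of the 18193 genes that had a probe set of their own, meaning a group of short array probes annotated to that gene symbol alone. A gene with several such probe sets was represented by the probe set chosen by its mean signal over the 9 arrays, the highest being taken, and that mean is given here only as a description. It was 1185 for the probe set of Pctp that was used and 400.2 for its other probe set, 1519 and 698 for the 2 brightest probe sets of Chpt1, 371 and 134 for those of Pcyt1a, 324 and 43.0 for those of Chka, and 1459 and 16.4 for those of Stard7. The other 5 genes had 1 probe set each. In all, the 10 genes had 20 probe sets, and all 20 passed the filter on low signal.

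Each array measured the liver RNA of 1 female mouse of the outbred stock Crlj:CD1(ICR), bought when 9 weeks old and kept in quarantine for 1 week. For 2 weeks, 3 mice ate powdered diet with 0 ppm of added compound (control), 3 ate the diet with 5000 ppm permethrin and 3 ate it with 5000 ppm clofibrate. Permethrin is a pyrethroid insecticide, and clofibrate is a lipid-lowering fibrate, a class of drug that activates the nuclear receptor PPAR alpha. The samples carry no genetic change, were not pooled, and are labelled as separate biological replicates; for the treated samples 1 label field names rats, and the organism, strain and source fields name mouse.

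Liver cells make phosphatidylcholine by a pair of routes. In the CDP-choline route, choline is phosphorylated, activated with CTP and joined to diacylglycerol. In the other, phosphatidylethanolamine made from ethanolamine is methylated in repeated steps with S-adenosylmethionine. Acyl chains are then exchanged, and proteins with a START domain, a pocket for a single lipid, carry the product between membranes. The liver uses phosphatidylcholine for membranes, for the surface of lipid droplets and lipoproteins, and for bile.

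Pctp and Chpt1 rose with permethrin, and Pctp, Chpt1, Chkb and Lpcat3 rose with clofibrate. The remaining genes did not pass the test in either comparison with control. A gene was called when limma's moderated test, adjusted by the Benjamini-Hochberg method over all 24546 tested probe sets, gave an adjusted p under 0.05, and every adjusted p given here comes from that test. With permethrin 2 of the 10 genes were called higher and 0 lower, where 1.28% of the 12466 tested genes were called higher and 0.85% lower. With clofibrate 4 were called higher and 0 lower, where 3.22% of all tested genes were higher and 3.8% lower. The 10 genes were chosen with earlier results of these data known, so these counts and shares are a description. The median log2 difference over the 10 genes was 0.01 with permethrin and 0.17 with clofibrate, beside -0.04 over all tested genes in each comparison. Between the treated groups, Chkb was called lower with permethrin than with clofibrate and 0 genes were called higher, where 0.265% of all tested genes were lower and 0.473% higher; the median over the 10 genes was -0.28, beside -0.01 over all genes. Both comparisons with control use the same 3 control arrays, so the values below are set side by side and not correlated. Log2 differences are between log2(signal + 3.35), which understates the change of dim probe sets, and are given ± SE; signals are linear and their means are given ± SD (n = 3 in each group).

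**Figure D1:**
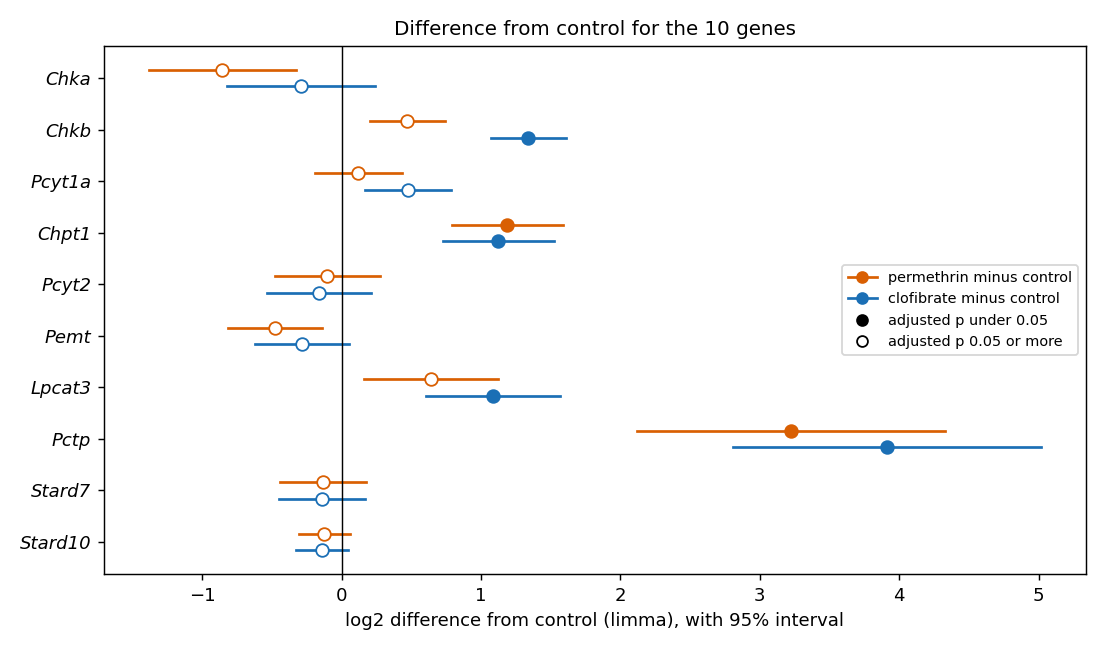
Log2 difference from control (horizontal axis) for each of the 10 genes (vertical axis), with the 95% interval of the limma fit as a line; filled points have an adjusted p under 0.05. Pctp lies farthest to the right, at 3.22 with permethrin and 3.91 with clofibrate, and Stard7 and Stard10 lie near 0 with both.

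Pctp encodes phosphatidylcholine transfer protein, also named StarD2, a soluble START domain protein that binds phosphatidylcholine. Its signal in the control arrays was 59.9, 398.9 and 97.1. With permethrin it was 1276.4, 1207.2 and 1336.8. With clofibrate it was 1533.6, 2468.9 and 2283.9. All 6 treated arrays lay above all 3 controls, although control 2 stood well above the other controls: the lowest permethrin array was 3.03 times and the lowest clofibrate array 3.84 times the signal of control 2. Pctp rose 9.33-fold with permethrin (log2 3.22 ± 0.50, 95% interval 4.33 to 20.1-fold, adjusted p = 0.00935). It rose 15.04-fold with clofibrate (log2 3.91 ± 0.50, 95% interval 6.99 to 32.4-fold, adjusted p = 0.00106). Permethrin against clofibrate differed by -0.69 ± 0.50 with an interval of -1.79 to 0.42, which was not called (adjusted p = 0.635). All 3 permethrin arrays lay below all 3 clofibrate arrays. The SE rests on 1 spread shared by all groups, so the wide control spread enters it.

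The other probe set of Pctp showed the same order of arrays within the controls. Its signals were 36.1, 114.4 and 44.4 in controls, 565.4, 406.3 and 468.2 with permethrin, and 671.1, 593.3 and 702.3 with clofibrate. The lowest permethrin array was 3.55 times and the lowest clofibrate array 5.19 times control 2. On this probe set Pctp rose 7.91-fold with permethrin (log2 2.98 ± 0.32, adjusted p = 0.000861) and 10.9-fold with clofibrate (log2 3.44 ± 0.32, adjusted p = 0.000158). Permethrin against clofibrate was -0.46 ± 0.32 and was not called (adjusted p = 0.624), again with no overlap of arrays. Over the 9 arrays, log2 signals of the 2 Pctp probe sets correlated with r = 0.984, a description in which both share the arrays and their scaling.

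**Figure D2:**
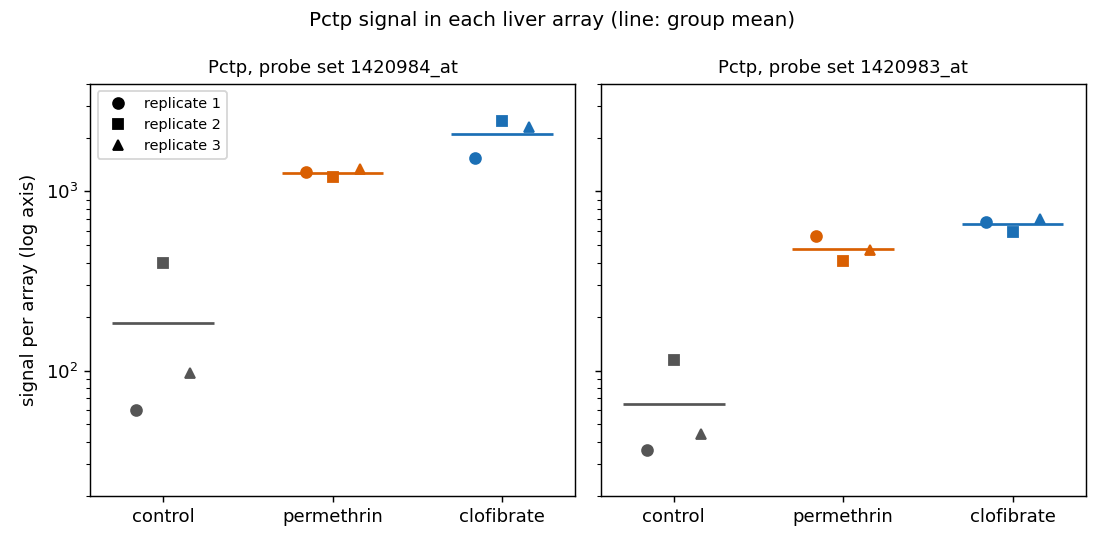
Signal of Pctp (vertical, log axis) in each array by group, for the probe set used (left) and its other probe set (right); lines are group means and marker shapes give the replicate number. In both panels control 2, at 398.9 and 114.4, is the highest control and lies below all 6 treated arrays.

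The control arrays of Pctp spread more widely than those of the other 9 genes. The highest Pctp control was 6.66 times the lowest, a log2 range of 2.67 with the offset, where the median range over all 12466 tested genes was 0.36 and 42 of them (0.337%) had a range as large or larger. Among the other 9 genes the widest control range was that of Chka, at 0.78, and the narrowest that of Stard10, at 0.06. Control 2 was at least 2-fold above both other controls in 109 genes (0.874%). Among the 6109 genes with a mean signal above 100, this held for 14 genes in control 2, 3 in control 1 and 13 in control 3. Without control 2 the log2 difference of Pctp was 4.001 ± 0.23 with permethrin and 4.69 ± 0.23 with clofibrate. Without control 1 it was 2.67 and 3.35, and without control 3 it was 3.00 and 3.69, and Pctp was called in each of these cases. The permethrin call of Pctp ended when the variance was modelled without an intensity trend (adjusted p = 0.0644).

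The START domain relatives of Pctp, Stard7 and Stard10, were not called. Stard7, which carries phosphatidylcholine to mitochondria, had signals of 1803.0, 1487.5 and 1375.8 in controls, 1427.0, 1615.9 and 1207.9 with permethrin and 1250.9, 1411.6 and 1546.9 with clofibrate. The 3 groups overlapped. Its log2 difference was -0.13 with permethrin (interval -0.44 to 0.17, adjusted p = 0.728) and -0.14 with clofibrate (interval -0.45 to 0.16, adjusted p = 0.649). A much dimmer probe set of Stard7 had a signal of 27.0 ± 10.01 in controls and 7.17 ± 5.65 with clofibrate, a log2 difference of -1.62 that was not called (adjusted p = 0.0600). Over the 9 arrays its correlation with the bright probe set was 0.231, as a description. With the mean over both probe sets, Stard7 was called lower with clofibrate (-0.88, adjusted p = 0.0315). In the dim probe set the clofibrate arrays, at 13.1, 6.47 and 1.91, lay below the filter signal of 15.6. That probe set entered the test, and this mean, mainly through the controls, where it was highest.

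Stard10, which binds phosphatidylcholine and phosphatidylethanolamine, had control signals of 6267.8, 6071.6 and 6323.7. It was 6048.2, 5634.2 and 5452.9 with permethrin and 5204.5, 5995.4 and 5770.2 with clofibrate. All 6 treated arrays lay below the 3 controls, but by little: the log2 differences were -0.12 ± 0.08 (interval -0.31 to 0.06, adjusted p = 0.568) and -0.14 ± 0.08 (interval -0.32 to 0.05, adjusted p = 0.419). For both Stard7 and Stard10 the sign of these differences turned when arrays were scaled to the spiked hybridization controls.

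Of the kinases that start the CDP-choline route, Chkb rose with clofibrate and Chka was not called. Chkb encodes choline kinase beta. Its signals were 317.7, 292.1 and 285.4 in controls, 401.5, 419.4 and 423.5 with permethrin and 672.6, 740.7 and 879.8 with clofibrate. The 3 groups did not overlap, with permethrin between control and clofibrate. Chkb rose 2.53-fold with clofibrate (log2 1.34 ± 0.12, interval 2.10 to 3.04-fold, adjusted p = 0.000133). With permethrin its mean went from 298 ± 17.1 to 415 ± 11.7, a log2 difference of 0.47 ± 0.12 that was not called (interval 0.20 to 0.74, adjusted p = 0.0900). Chkb was 1.83-fold lower with permethrin than with clofibrate (log2 -0.87 ± 0.12, adjusted p = 0.0103). That call ended with arrays centred on their medians (-0.85, adjusted p = 0.0755), without an intensity trend (adjusted p = 0.0845) and without clofibrate 3 (-0.76, adjusted p = 0.0638).

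Chkb lies beside Cpt1b, the muscle-type carnitine palmitoyltransferase, in the mouse genome, and another probe set is annotated to Chkb, Cpt1b and Gm44502 together. It was left out of the choice of probe sets because it names several genes. Its signals were 13.8, 21.7 and 20.4 in controls, 41.0, 35.2 and 39.9 with permethrin and 186.1, 245.3 and 251.4 with clofibrate. This shared probe set rose with both diets, by a log2 of 0.95 ± 0.19 with permethrin (adjusted p = 0.0356) and of 3.40 ± 0.19 with clofibrate (adjusted p = 4.05e-06). Its control 1 lay below the filter signal of 15.6 and its other controls near it. The treated arrays were thus needed to admit it to the test that called it higher. Which of the 3 genes the shared probe set reads, and whether their transcripts add to the probe set of Chkb alone, was not tested.

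Chka encodes choline kinase alpha. Its signals were 434.3, 294.97 and 507.2 in controls, 217.3, 198.6 and 248.7 with permethrin and 403.0, 224.8 and 389.7 with clofibrate. The 3 permethrin arrays lay below all controls, while the clofibrate arrays overlapped both groups. The log2 difference was -0.86 ± 0.24 with permethrin (interval -1.39 to -0.33), which was not called (adjusted p = 0.122). With clofibrate it was -0.29 ± 0.24 (adjusted p = 0.581), and that sign turned under scaling to the hybridization controls. The dimmer probe sets of Chka, at mean signals of 43.0 and 27.1 over the 9 arrays, were not called in either comparison.

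Pcyt1a encodes the alpha isoform of CTP:phosphocholine cytidylyl transferase, which controls the rate of the CDP-choline route. Its signals were 315.4, 326.4 and 311.7 in controls, 392.3, 299.2 and 350.5 with permethrin and 396.0, 526.6 and 417.9 with clofibrate. The clofibrate arrays lay above all controls, and the permethrin arrays overlapped them. Pcyt1a had a log2 difference of 0.48 ± 0.14 with clofibrate (interval 0.17 to 0.79, adjusted p = 0.0806) and of 0.12 with permethrin (interval -0.19 to 0.43, adjusted p = 0.773). The clofibrate difference was called under array weights (adjusted p = 0.0423) and under scaling to the hybridization controls (adjusted p = 0.0255). Its 3 other probe sets did not show 1 direction: with clofibrate they differed from control by 0.53, -0.24 and -0.29, and over the arrays they correlated with the one used at r = 0.883, -0.04 and -0.17.

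Chpt1 encodes cholinephosphotransferase, the enzyme that joins CDP-choline to diacylglycerol. Its signals were 971.2, 720.9 and 797.6 in controls, 1719.2, 1981.6 and 1950.9 with permethrin and 2042.7, 1309.0 and 2175.8 with clofibrate. All treated arrays lay above all controls, with clofibrate 2 the lowest of them. Chpt1 rose 2.28-fold with permethrin (log2 1.19 ± 0.18, interval 1.73 to 3.00-fold, adjusted p = 0.00802). It rose 2.18-fold with clofibrate (log2 1.12 ± 0.18, interval 1.65 to 2.87-fold, adjusted p = 0.00429). The treated groups differed by 0.06 with an interval of -0.33 to 0.46. Of the 3 other Chpt1 probe sets, 2 were called higher with both diets, by 1.33 and 1.30 with permethrin and 1.48 and 1.03 with clofibrate. The dimmest had differences of 1.07 (adjusted p = 0.0656) and 0.39 (adjusted p = 0.451). The permethrin call of Chpt1 ended without an intensity trend (adjusted p = 0.0644).

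**Figure D3:**
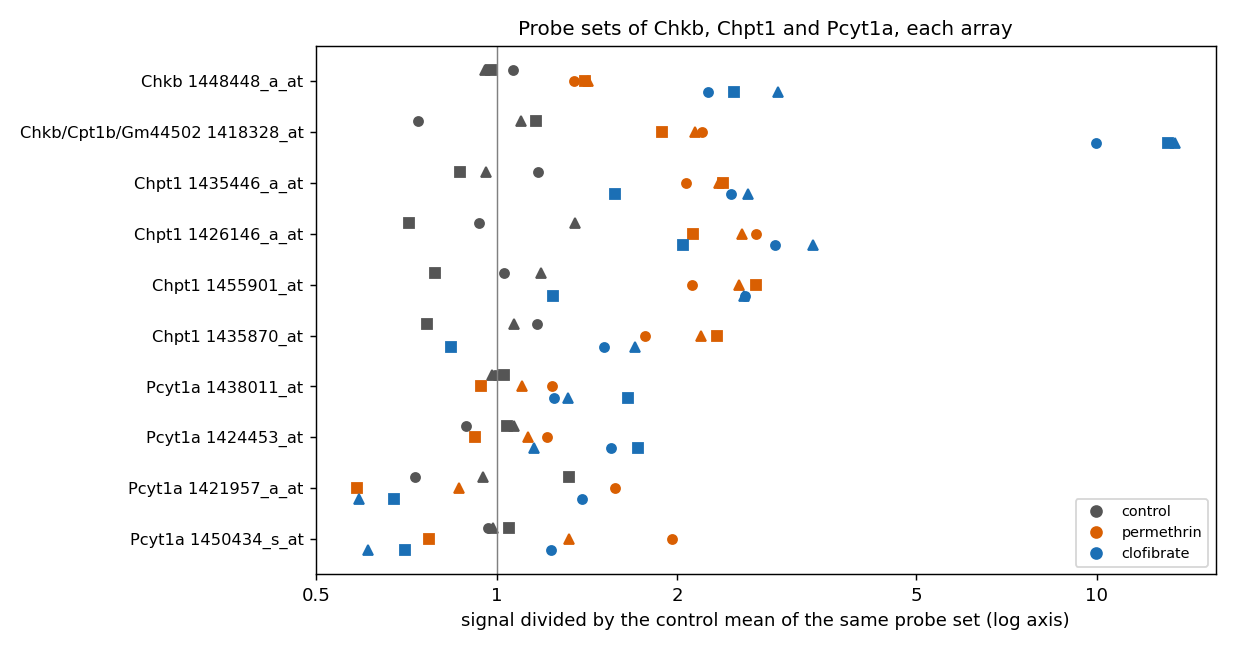
Signal of each probe set of Chkb, Chpt1 and Pcyt1a divided by the control mean of the same probe set (horizontal, log axis); each point is 1 array, and circles, squares and triangles are replicates 1, 2 and 3. The probe set shared by Chkb, Cpt1b and Gm44502 lies farthest right with clofibrate, and the probe sets of Pcyt1a scatter around 1.

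The genes of the ethanolamine and methylation route were not called with either diet. Pcyt2, which activates phosphoethanolamine with CTP, had signals of 1821.2, 1769.6 and 1373.1 in controls, 1564.5, 1865.1 and 1222.0 with permethrin and 1255.8, 1491.9 and 1685.1 with clofibrate. The groups overlapped, with log2 differences of -0.10 (interval -0.48 to 0.27, adjusted p = 0.844) and -0.16 (interval -0.54 to 0.21, adjusted p = 0.678). Under scaling to the hybridization controls both turned sign, and with arrays centred on their medians the permethrin difference was 0.00. Pemt, the methyltransferase that turns phosphatidylethanolamine into phosphatidylcholine, had signals of 1707.8, 1562.9 and 2012.6 in controls, 1494.0, 978.2 and 1351.4 with permethrin and 1378.8, 1410.3 and 1524.5 with clofibrate. All 6 treated arrays lay below the controls. The log2 differences of Pemt were -0.48 ± 0.15 (interval -0.82 to -0.14, adjusted p = 0.180) and -0.29 ± 0.15 (interval -0.62 to 0.05, adjusted p = 0.354), and the latter became 0.05 under scaling to the hybridization controls.

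Lpcat3 encodes the acyltransferase that puts polyunsaturated chains onto lysophosphatidylcholine. Its signals were 848.1, 653.6 and 785.3 in controls, 1013.9, 1444.7 and 1126.8 with permethrin and 1099.2, 2064.7 and 1852.8 with clofibrate. Treated arrays lay above all controls, and the treated groups overlapped. Lpcat3 rose 2.12-fold with clofibrate (log2 1.09 ± 0.22, interval 1.52 to 2.96-fold, adjusted p = 0.0146). With permethrin the difference was 0.64 ± 0.22 (interval 0.16 to 1.12, adjusted p = 0.210). The clofibrate call of Lpcat3 ended without control 2 (0.98, adjusted p = 0.0599), without clofibrate 3 (0.99, adjusted p = 0.0683) and without an intensity trend (adjusted p = 0.0660). Permethrin against clofibrate differed by -0.45, with an interval of -0.93 to 0.03.

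**Figure D4:**
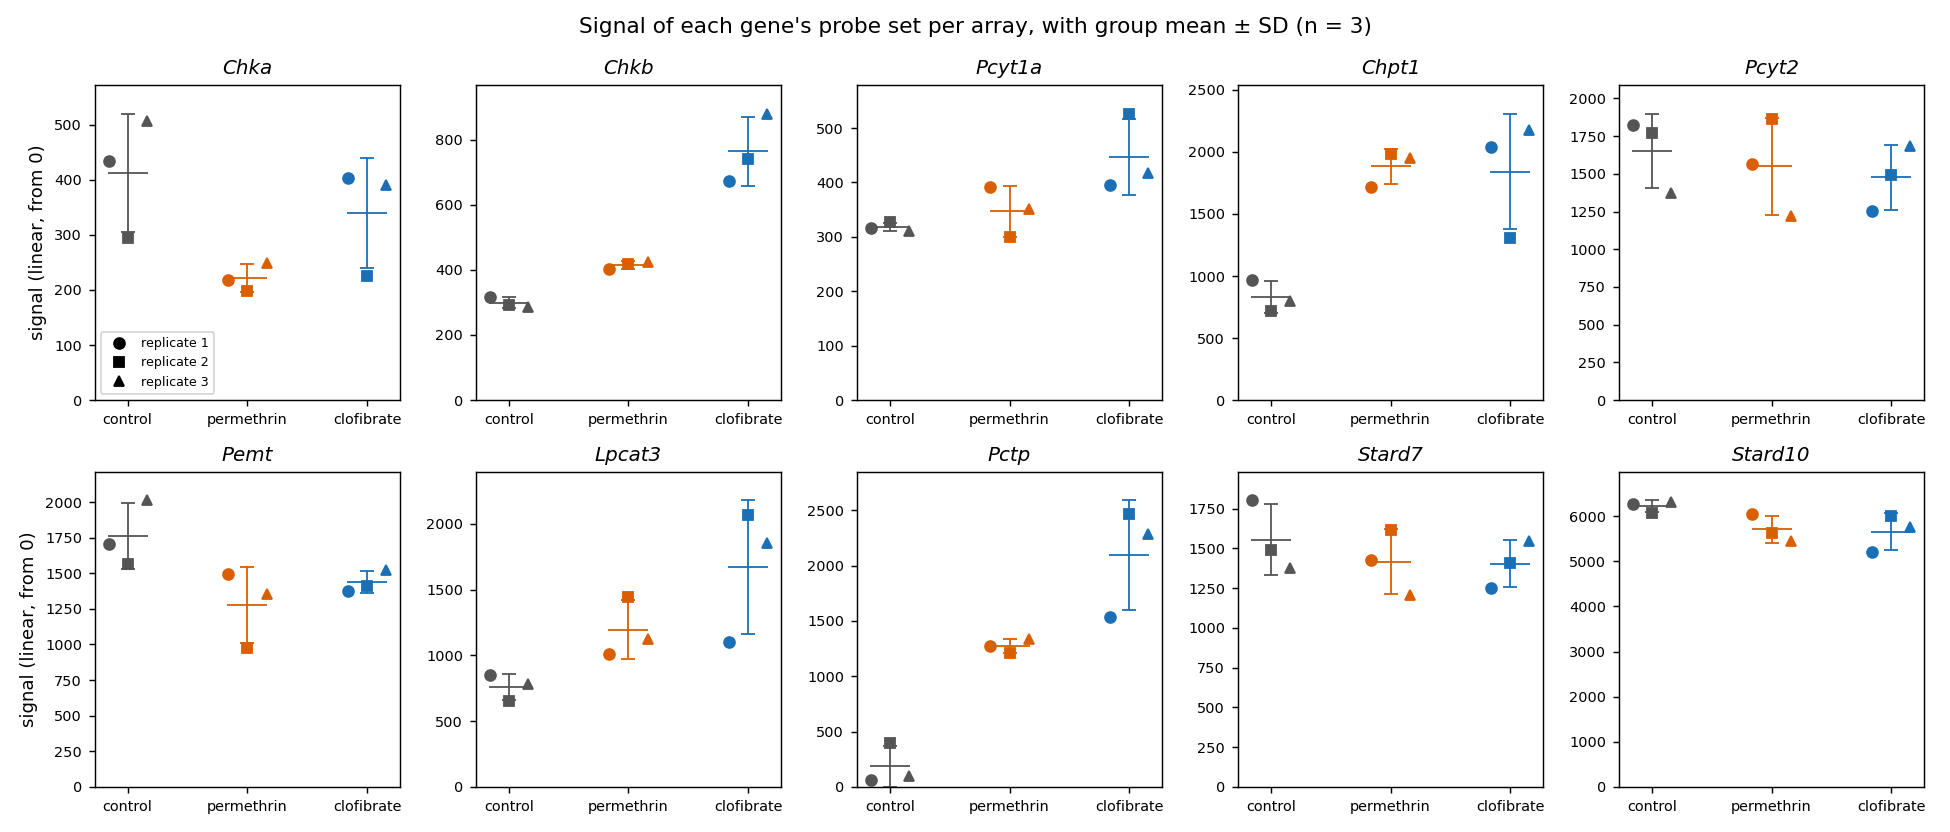
Signal (vertical, linear axis from 0) of each of the 10 genes in each array, with the group mean and SD (n = 3); marker shapes give the replicate number. Chkb steps up from control (298) to permethrin (415) to clofibrate (764), Pctp and Chpt1 are high in both treated groups, and the groups of Pcyt2 and Stard7 overlap.

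Promoter sequences are shown for 3 genes that rose with clofibrate, since fibrates act through a DNA-binding receptor and the windows differ in their motifs and base composition. RefSeq windows of 300 bases on GRCm38.p6, 250 before and 50 after the transcript start, were given for 9 of the 10 genes, as 12 windows; Pcyt2 had none here. The windows of Pctp (chr11:90002845-90003144, minus strand), Chpt1 (chr10:88503921-88504220, minus strand) and Chkb (chr15:89429878-89430177, minus strand) are shown 5′ to 3′, with capitals at the hexamer AGGTCA or its reverse complement TGACCT, the core of nuclear receptor sites.
Pctp: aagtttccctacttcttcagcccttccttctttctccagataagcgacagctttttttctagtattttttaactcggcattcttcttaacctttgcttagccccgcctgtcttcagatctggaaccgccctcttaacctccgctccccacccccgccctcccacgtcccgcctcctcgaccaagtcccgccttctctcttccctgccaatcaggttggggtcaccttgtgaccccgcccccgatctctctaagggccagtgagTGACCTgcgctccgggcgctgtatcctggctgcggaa
Chpt1: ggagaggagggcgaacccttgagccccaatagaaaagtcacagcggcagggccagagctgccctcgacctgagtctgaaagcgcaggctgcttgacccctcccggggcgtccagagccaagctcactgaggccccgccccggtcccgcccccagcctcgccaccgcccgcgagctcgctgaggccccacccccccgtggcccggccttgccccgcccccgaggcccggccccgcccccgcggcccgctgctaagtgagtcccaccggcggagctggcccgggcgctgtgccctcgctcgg
Chkb: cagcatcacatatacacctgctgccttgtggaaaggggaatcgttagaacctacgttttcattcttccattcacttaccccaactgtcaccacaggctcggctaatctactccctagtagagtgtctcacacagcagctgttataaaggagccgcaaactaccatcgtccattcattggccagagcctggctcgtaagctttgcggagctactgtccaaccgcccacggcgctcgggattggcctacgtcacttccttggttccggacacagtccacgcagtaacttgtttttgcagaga
The hexamer occurred in 2 of the 12 windows, in Pctp as TGACCT starting 13 bases after the transcript's first base and in 1 of the 3 windows of Pcyt1a, while 16.3% of all 32851 RefSeq windows of that length held it on either strand. PPAR alpha binds as a dimer with RXR to a repeat of this hexamer with 1 base between, AGGTCANAGGTCA. With up to 2 mismatches in its 12 fixed letters on either strand, that repeat was in 0 of the 12 windows and in 3.86% of all windows. The E-box CACGTG was in 0 of the 12 and in 7.15% of all windows. The G and C content was 56.7% in the window of Pctp, 75.3% in that of Chpt1 and 51.7% in that of Chkb, beside a median of 52.7% over all windows. A match is a run of letters and not a bound site, and a missing match speaks for this window alone.

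Over the 9 arrays, genes whose log2 signals followed that of Pctp most closely were Nae1, a subunit of the NEDD8-activating enzyme (r = 0.978), Ctps, CTP synthase (0.972), Fabp2, the intestinal-type fatty acid-binding protein (0.969), Hsd17b12, a reductase of fatty acid elongation (0.965), and Arfip1, arfaptin 1 (0.964). Each of them, picked for likeness to Pctp over these same arrays, was highest among controls in control 2. Fabp2 was 721, 1095 and 702 in controls, and reached 1374 ± 168 with permethrin and 1644 ± 185 with clofibrate. Ctps was 41.0, 61.6 and 40.5 in controls, 73.8 ± 7.07 with permethrin and 83.1 ± 7.79 with clofibrate. At the other end stood 0610005C13Rik (r = -0.983), Ceacam1, a cell adhesion protein (-0.973), and Nt5c, a nucleotidase (-0.972). Among the other 9 genes studied, r with Pctp was 0.788 for Chkb, 0.770 for Chpt1, 0.741 for Lpcat3 and 0.670 for Pcyt1a, and between -0.23 for Pcyt2 and -0.65 for Stard10 for the rest. These values describe 9 arrays in 3 groups that share diet and scaling, and carry no test.

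Other genes of phospholipid metabolism were read from 8 lists holding 122 symbols, of which 113 were on the array and 107 were tested. With permethrin 5 were called higher and 1 lower (median 0.04), with clofibrate 12 higher and 9 lower (median -0.01), and between the treated groups 0 higher and 1 lower. The clofibrate split became 29 to 1 under scaling to the hybridization controls and 10 to 1 with arrays centred on their medians, and the permethrin split 5 to 0 under each. Over all tested genes the clofibrate split was 402 to 474, and became 1015 to 88 and 305 to 182 in the same order. The permethrin split was 160 to 106, and became 144 to 22 and 117 to 26. With quantile normalization and cyclic loess the clofibrate split of list genes was 11 to 7 and 12 to 9. The permethrin split of list genes was 5 to 1 under each. For all tested genes the clofibrate split was then 395 to 404 and 421 to 382. The permethrin split there was 164 to 94 and 171 to 100. The permethrin count of list genes was 3 without control 1, and the clofibrate count was 13 without control 3 and 11 without clofibrate 3.

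Genes of lipoprotein loading and export had 1 of 13 called higher with permethrin and 2 with clofibrate, with 0 lower. Over all tested genes 1.28% were called higher and 0.85% lower with permethrin, and 3.22% and 3.8% with clofibrate. The counts of the other lists below also stand beside these shares, and no list was tested as a set. Pltp, the plasma phospholipid transfer protein, was 425, 545 and 320 in controls, 1308, 4116 and 4462 with permethrin and 3895, 5902 and 4854 with clofibrate. All treated arrays lay above the controls, and Pltp rose 6.82-fold (adjusted p = 0.00474) and 11.4-fold (adjusted p = 0.000452). The other gene called with clofibrate was Abcb4, which moves phosphatidylcholine into bile, with a log2 difference of 0.56 (adjusted p = 0.0182). Among 15 genes of acyl remodelling 2 rose with each diet and 0 fell. These were Pla2g6 and Abhd4 with permethrin, and Pla2g6 and Pla2g12a with clofibrate. Pla2g6, a calcium-independent phospholipase, rose from 307 ± 11.03 to 560 ± 83.0 with permethrin (log2 0.85) and 718 ± 89.1 with clofibrate (log2 1.21). Its permethrin call ended without control 1 (adjusted p = 0.0565) and without permethrin 3 (adjusted p = 0.0591). Abhd4, which removes acyl chains from N-acyl phospholipids, rose with permethrin from 880 ± 86.0 to 1592 ± 378 (log2 0.83, adjusted p = 0.0223), a call that ended without each of the 3 controls in turn.

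Of 22 START domain and lipid transfer relatives, 1 rose with permethrin and 2 with clofibrate, and 0 fell. Osbpl3, an oxysterol-binding protein relative, was 17.3, 14.0 and 14.7 in controls (15.3 ± 1.75), near the filter on low signal. Of these only control 1 lay above it, so the high treated arrays admitted Osbpl3 to the test that called it higher. It rose to 63.9 ± 14.1 with permethrin (log2 1.83, adjusted p = 0.00277) and 38.2 ± 9.33 with clofibrate (log2 1.13, adjusted p = 0.0173). The clofibrate call ended without control 2, control 3 or clofibrate 2. Acot12, a cytosolic acetyl-CoA hydrolase with a START domain, was 535, 532 and 516 in controls, 746, 677 and 724 with permethrin and 951, 1170 and 1138 with clofibrate. The groups did not overlap, Acot12 rose with clofibrate (log2 1.03, adjusted p = 0.00033), and it was lower with permethrin than with clofibrate by 0.59 on the log2 scale (adjusted p = 0.0376). Its other probe set did not show this, with differences of -0.01 from control with clofibrate and 0.77 between the treated groups, and the call between the treated groups held in 8 of 20 settings. It missed the threshold in 10, of which 5 left out a treated array, and turned sign in 2 that changed the probe set.

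Choline oxidation takes choline away from phosphatidylcholine synthesis, and the methyl cycle supplies the S-adenosylmethionine that Pemt uses. Of 14 tested genes 1 was called higher and 1 lower with permethrin (median -0.27), and 1 higher and 7 lower with clofibrate (median -0.34). The 7 were Bhmt, Bhmt2, Dmgdh, Sardh, Gnmt, Ahcy and Cbs. With arrays centred on their medians, and under scaling to the hybridization controls, 0 of the 14 were called lower with clofibrate, at medians of -0.25 and -0.00, or -0.29 and -0.27 relative to the median gene. With quantile normalization 5 of the 14 were called lower with clofibrate, and with cyclic loess 7. Cbs, which takes homocysteine out of the cycle, was 2751 ± 392 in controls, 1666 ± 103 with permethrin (log2 -0.71) and 1699 ± 178 with clofibrate (log2 -0.69). Its permethrin call ended in 8 of 20 settings, among them without control 1, control 3, permethrin 1 or permethrin 3. Gnmt, the glycine methyltransferase, was 8161 ± 376, 6428 ± 307 and 5410 ± 654 in the same order, with log2 differences of -0.34 (adjusted p = 0.126) and -0.60 (adjusted p = 0.00459). Bhmt, which remethylates homocysteine with betaine, was 12001 ± 596, 10369 ± 347 and 8455 ± 1553, with a clofibrate difference of -0.52 that missed the threshold in 10 of 19 settings. Chdh, choline dehydrogenase, chosen here after its value was seen, rose with both diets, from 1362 ± 22.0 to 2403 ± 221 (log2 0.81) and 2324 ± 174 (log2 0.77).

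Calls in the remaining lists came with clofibrate alone. Of 15 genes that supply phosphatidate and diacylglycerol, Gpam, Gpat3, Agpat3 and Lpin2 were called higher with clofibrate and 0 with permethrin. That clofibrate count of 4 was 3 with arrays centred on their medians and 6 when scaled to the hybridization controls. It stayed at 4 with quantile normalization and with cyclic loess. Of 7 genes of the ethanolamine branch and phosphatidylserine, Ptdss2, a phosphatidylserine synthase, was called higher and Etnppl, which breaks down phosphoethanolamine, lower with clofibrate. Etnppl was 1493 ± 475 in controls and 430 ± 168 with clofibrate (log2 -1.80, adjusted p = 0.00597), but its other probe set differed by -0.48 (adjusted p = 0.652). The list of phosphatidylcholine breakdown, with 16 tested genes, also holds genes of sphingomyelin. Its only call with clofibrate was a lower signal of Smpd1, acid sphingomyelinase, which acts on sphingomyelin. Of 5 choline uptake genes 0 were called with either diet.

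**Figure D5:**
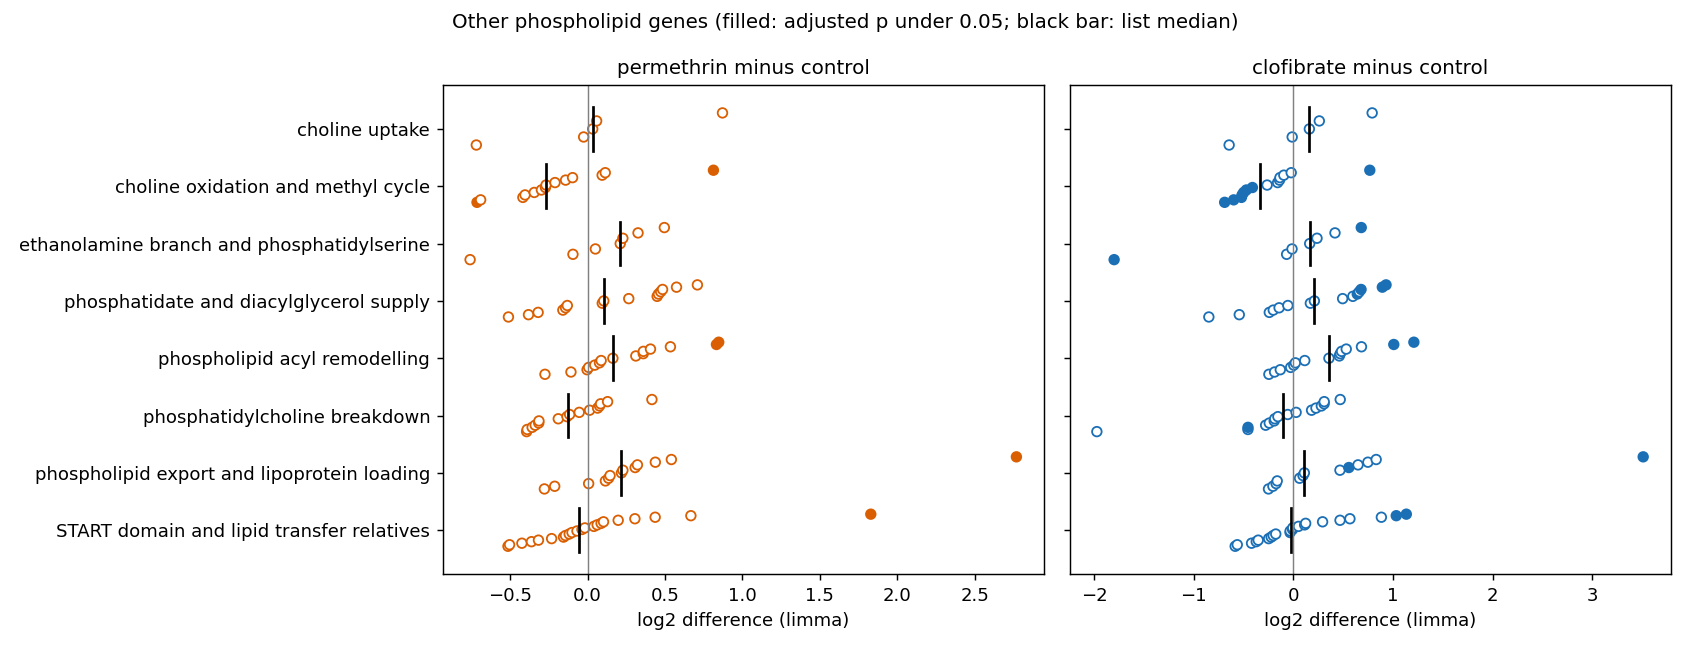
Log2 difference from control (horizontal) of each tested gene in the 8 lists of phospholipid genes (vertical), with permethrin on the left and clofibrate on the right; each point is 1 gene, filled where the adjusted p is under 0.05, and black bars are list medians. Pltp lies farthest to the right in both panels, at 2.77 and 3.51, and the filled points left of 0 with clofibrate lie mostly among choline oxidation and methyl cycle genes.

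Array-wide measures moved with the diets, and their part in these results was not tested. Median signal per array was 13.4 to 17.9, log2 signals correlated at 0.959 to 0.970 within groups and 0.948 to 0.966 between groups, and the spiked hybridization controls had group means of log2 signal, in the order control, permethrin and clofibrate, of 10.12 ± 0.16, 9.97 ± 0.18 and 9.78 ± 0.12. Gapdh signal at its 3′ probe set over that at its 5′ probe set was 0.912 to 1.04 across control arrays and 0.835 to 0.904 across treated arrays. The 18S ribosomal RNA signal was 191 to 208 across controls, 47.6 to 131 across permethrin arrays and 87.7 to 126 across clofibrate arrays. On both measures all 6 treated arrays lay below the lowest control. The summed signal of 9 hepatocyte markers lay between 78749 and 85509 in controls, 70198 and 75365 with permethrin, and 54909 and 68537 with clofibrate, with 5 of the 9 called lower with clofibrate and 0 with permethrin. The clofibrate count was 1 with quantile normalization, 2 with cyclic loess, and 0 with arrays centred on their medians or scaled to the hybridization controls; the permethrin count was 1 with cyclic loess. The 7 pancreas acinar markers on the array summed, in the same order of groups, to 1214 to 1530, 235 to 360 and 276 to 329. Of these, Cela1 alone was called lower in both, and Cpa1 and Ctrb1 were below the filter. The 5 tested markers were uneven. Their log2 differences ran from -2.66 to -0.06 with permethrin (median -0.71) and from -2.67 to 0.18 with clofibrate (median -0.16). The 4 adipocyte markers summed to 20.0 to 34.4, 35.0 to 127 and 35.6 to 102, with Adipoq, Retn and Lep below the filter. Their tested member, the lipid droplet gene Cidec, was called higher with clofibrate (log2 2.62, adjusted p = 0.0368) and had a difference of 2.35 with permethrin (adjusted p = 0.108). The Cidec controls, at 1.28, 7.23 and 7.31, lay below the filter signal, so the treated arrays alone admitted Cidec to the test. The summed levels of 8 endothelial markers were 2409 to 2742, 2155 to 2502 and 1756 to 1943, with 1 called lower with clofibrate (0 when scaled to the hybridization controls), and those of 8 stellate cell markers 3538 to 4599, 2972 to 3266 and 2634 to 3423, with 0 called. Kupffer cell markers (9 genes, 3312 to 3894, 2771 to 5919 and 3122 to 4450), lymphocyte markers (7 genes, 132 to 171, 123 to 213 and 132 to 194), cholangiocyte markers (5 genes, 92.1 to 97.5, 61.8 to 95.3 and 66.4 to 107) and erythroid markers (4 genes, 122 to 347, 140 to 369 and 205 to 341) overlapped between control and both diets. In bulk liver RNA, fewer cells of a type and less RNA per cell cannot be told apart.

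Clock, feeding state and sex-biased genes were read from lists of their own, and their counts stand beside the 1.28% higher and 0.85% lower over all tested genes with permethrin and the 3.22% and 3.8% with clofibrate. Of 16 clock genes 0 were called with permethrin and 2 lower with clofibrate, Npas2 (log2 -1.41, adjusted p = 0.0367) and Cry1 (log2 -1.24, adjusted p = 0.00812). When arrays were scaled to the hybridization controls, the clofibrate counts were 2 higher and 1 lower. Dbp, a clock output gene, was 23.9 ± 5.15 in controls and 19.1 ± 6.65 with permethrin, while its clofibrate arrays were 65.2, 278.6 and 26.0. Per2 was 24.9 ± 9.47, 14.1 ± 5.90 and 19.8 ± 3.61. Without a call, all clofibrate arrays lay above all controls for Nr1d1 (25.5 ± 9.39 to 85.6 ± 27.2) and Nr1d2 (264 ± 45.1 to 521 ± 187). For Arntl they lay below (198 ± 3.60 to 115 ± 46.6). Of 15 feeding state genes 0 were higher and 1 lower with permethrin, Pklr, liver pyruvate kinase (log2 -1.26), and 3 were higher and 2 lower with clofibrate, or 1 higher and 2 lower with arrays centred on their medians. Pck1, an enzyme of glucose synthesis, was 3758 ± 1848, 2137 ± 754 and 2725 ± 1111 and was not called. Of 15 sex-biased liver genes 3 were higher and 0 lower with permethrin, and 3 higher and 2 lower with clofibrate. Their part in the results was not tested.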

How the data were processed

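Liver RNA of 9 mice was measured on 9 Affymetrix mouse arrays. The authors deposited 1 linear intensity (signal) per probe set and array, computed with MAS5 per the submitters' processing notes; for its version and settings, none is given in the sources used here. On every array the mean without the lowest and highest 2% of the 45101 values was 100.001, so the deposited signals had been scaled to 1 trimmed mean, and a shift of the whole transcriptome would not show. The deposited file held 0 columns from outside the series.

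Of the probe sets, 64 are array controls and 34945 carry 1 gene symbol, for 18193 genes. Before log2, 3.35 was added, which is the 20th percentile over all arrays. The 24546 probe sets whose signal passed 15.6, the overall median, in 3 or more arrays were tested, and they represent 12466 genes. All arrays entered 1 model with limma 3.58.1 in R 4.3.3 (with package data.table at version 1.17.8), with an intensity trend, two-sided, and adjustment by the Benjamini-Hochberg method at 0.05. Scripts were tested on simulated data. Python 3.11.15, pandas 2.3.3 and matplotlib 3.10.9 were used for promoters and figures. The number of arrays limits the precision, and no label gives a batch or scan date.

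The 10 genes, the gene lists and the tests were chosen with earlier results of these data known. The text names all 10 genes. From the pathway lists it names up to 4 risers and 4 fallers per comparison whose arrays do not overlap. It also names the 5 genes most like Pctp and the 3 least like it. Listed clock, feeding state and sex-biased genes past the threshold, and Dbp, Per2 and Pck1, are given by value or count. Chdh, Abcb4, Nr1d1, Nr1d2, Arntl and members listed by call alone were named after their values were seen. Alternatives changed the offset, normalization, filter, variance model, array weights, arrays in the model, the probe set of a gene and a replicate block, and left out each array. No label says that the replicate numbers pair mice. Same-numbered arrays deviated with correlations of -0.109 to 0.113, a description that cannot exclude pairing.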

Additional observations from a re-analysis of the deposited data

Results flagged for a closer look

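For Chkb, the treated groups differed by the direct test, with a log2 difference of -0.87 for permethrin against clofibrate (limma, adjusted p = 0.0103): all 3 permethrin arrays lay below all 3 clofibrate arrays. For Acot12, the same test gave -0.59 (adjusted p = 0.0376), again with no overlap of arrays, while its other probe set gave 0.77.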

How the results depend on the processing

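The rises of Pctp, Chpt1 and Chkb with clofibrate held in all settings tried. Of 585 values of the 10 genes under alternatives, 539 kept direction and side of the threshold, 8 lost a call, 4 gained one and 34 changed sign, all 34 among differences that were not called. The cause of these changes was not tested, except that leaving out an array also leaves fewer samples. Among the 10 genes, 0 were called for permethrin against control without an intensity trend, and 0 for permethrin against clofibrate without the trend or with arrays centred on their medians (0 to 1 leaving out single arrays). For pathway genes called, permethrin against control, the count of 6 became 3 without the trend (3 to 6 leaving out single arrays). For pathway genes called, clofibrate against control, the count of 21 became 11 with arrays centred on their medians, 9 without the trend and 34 with array weights (11 to 23 leaving out single arrays). For pathway genes called, permethrin against clofibrate, the count of 1 became 2 with quantile normalization and cyclic loess, 3 with array weights and 0 with centred arrays, hybridization control scaling, no trend, the 6 arrays compared, the second probe set, the mean over probe sets and the replicate block (0 to 2 leaving out single arrays). The replicate block called Chka lower with permethrin (adjusted p = 0.0331), so 3 of the 10 genes were called there, 4 with clofibrate and 1 between the treated groups.

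Scaling to the hybridization controls moved the median gene by 0.14 with permethrin, 0.32 with clofibrate and -0.18 between treated groups. Under it the permethrin differences were 0.024 for Stard10, 0.013 for Stard7 and 0.044 for Pcyt2, and the clofibrate differences 0.20 for Stard10, 0.19 for Stard7, 0.050 for Pemt, 0.043 for Chka and 0.17 for Pcyt2. Centring moved it by 0.11 with permethrin, and Pcyt2 was then 0.0024. For clofibrate, Stard10 was 0.065 with quantile normalization and 0.0021 with cyclic loess. Between the treated groups, Stard10 was -0.11, -0.17, -0.098 and -0.0085 and Stard7 -0.023, -0.18, -0.044 and -0.097 with quantile, hybridization control, cyclic loess and array weight settings. Pcyt2 was -0.13 and -0.090, and Chpt1 -0.12 and -0.061, with hybridization control scaling and array weights. With the second probe set, Chpt1 was -0.15 and Acot12 0.77 between treated groups, Acot12 -0.0082 with clofibrate and Etnppl 0.12 with permethrin. With the mean over probe sets, Pcyt1a was 0.0032 and Acot12 0.089 between treated groups. Leaving out single arrays gave, between treated groups, -0.044 to 0.058 for Stard10, -0.090 to 0.12 for Stard7, -0.085 to 0.22 for Pcyt2, -0.16 to 0.20 for Chpt1 and -0.077 to 0.059 for Cbs, and with permethrin -0.25 to 0.057 for Pcyt2. Dim signals limit Osbpl3, the second probe set of Stard7 and the probe set shared by Chkb, Cpt1b and Gm44502.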
